A study of Rattus norvegicus with 16 samples.

Results

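Collagens, laminins and integrins build the tissue around the epididymal tubule and fasten its cells to it. The annotation of a rat expression array gave 77 genes whose symbols begin as collagen chain, laminin chain or integrin subunit symbols do, of 14217 genes with a symbol of their own. They were 41 collagen genes, 10 laminin genes, 22 integrin genes and 4 genes whose symbols fit the pattern but which encode no chain (Itgb1bp1, Itgb1bp2, Itgb3bp and Itgbl1). Each gene was read from 1 probe set, the one with the highest mean over all arrays.

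The arrays came from the initial segment, the first stretch of the epididymis, of adult male Sprague-Dawley rats. In efferent duct ligation (EDL) the ducts that carry testicular fluid were tied off on one side, and the other side of the same animal had a sham operation. There were 4 arrays each for sham and for 6 h, 12 h and 18 h of ligation, 16 in all, and the dissected piece was the most proximal part of the segment. The labels call the 4 arrays of a group biological replicates, and they do not say which sham array shares an animal with which ligated one. No genetic change was involved, and the tissue was taken whole, with epithelium, muscle, vessels and connective tissue together.

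Fibrillar collagens (types I, III and V here) form the ropes of connective tissue and are made mainly by fibroblasts. Collagen IV and the laminins, each laminin an alpha, a beta and a gamma chain, polymerise into the 2 sheets of the basement membrane under the epithelium, and collagens XV and XVIII are proteoglycans in or beside it. Integrins are receptors of 1 alpha and 1 beta subunit: alpha-3 beta-1 and alpha-6 beta-4 bind laminin, alpha-v pairs with several beta subunits to bind the RGD motif of fibronectin and related ligands, and beta-2 integrins belong to leukocytes. In the initial segment the basement membrane lies between the tall principal cells, which depend on testicular fluid, and a thin layer of muscle and a dense capillary bed.

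Levels are the deposited log2 values, and a difference of 1 is a factor of 2. A gene was tested if it reached 5 on at least 4 of the 16 arrays, because lower values lie near the floor of 2.22 and were not told from background. Of the 77 genes 41 were tested, namely 21 collagens, 8 laminins, 9 integrins and 3 of the genes that encode no chain. The other 36 were not tested, and 10 of these sat at the floor on every array, among them Itgam, the alpha subunit of the macrophage and neutrophil integrin, and Col9a1, Col9a2 and Col9a3, the chains of cartilage collagen IX. Itgb2, the beta subunit shared by leukocyte integrins, was the only untested gene to reach 5, on 1 array. A gene was called higher or lower when limma's adjusted p, over all 13410 tested probe sets, was under 0.05.

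Replicates 3 and 4 differed from replicates 1 and 2 in all 4 groups, and the labels do not say what the numbers stand for. Of 13 tested fibroblast markers that are no collagens, 9 were lower in replicates 3 and 4 and 0 were higher, with a median difference of -0.85. The summed level of all 15 matched fibroblast markers (log2 of the sum of linear values) lay between 13.07 and 13.67 in replicates 3 and 4 and between 13.98 and 14.41 in replicates 1 and 2, with no overlap. Of 11 macrophage markers 8 were lower, and of 4 basal cell markers 0 were called by limma and 2 had an unadjusted p under 0.05. Of 11 general epithelial markers 1 was lower and 1 was higher. Ros1, Cst8 and Etv4, markers of the initial segment epithelium, were higher (0.54, 0.99 and 0.83). The smooth muscle markers Acta2, Des, Mylk and Smtn were lower (-1.24, -0.93, -0.32 and -0.44). Lower too were endothelial (Kdr and Eng), nerve (S100b and Ngfr), fat (Lpl and Cfd), lymphocyte (Nkg7) and platelet (Pf4) markers. The other tested markers of these lists were not called. Beside these counts, 18.7% of all tested probe sets were lower and 18.3% were higher. A spiked control transcript (dap) also stood at 7.10 to 7.93 in replicates 3 and 4 of sham and EDL 6 h and at the floor of 2.22 on the other 12 arrays. Replicates 3 and 4 of EDL 12 h and 18 h had a Gapdh 3' minus 5' signal, a sign of RNA quality, of 0.19 to 0.29, against -0.10 to 0.15 on the other 12 arrays, and its part in the changes of those arrays was not tested. For the called genes and the main matrix genes, values are therefore given for both pairs of replicates as well as for all arrays, and the comparisons with sham were also fitted with the pair as a term. In whole tissue, fewer cells of a type and less RNA per cell cannot be told apart.

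The sequences just before the start sites of 3 sets of genes are shown here, and their part in the changes was not tested. The genes are Col18a1, which rose most among the members, Itgav, which fell, and Col4a1 with Col4a2, the collagen IV pair. The sequences are taken from RefSeq on the build GRCr8, which holds a promoter for 32 of the 41 tested members. Col4a1 and Col4a2 start back to back on chromosome 16, at 84885597 on the + strand and at 84885520 on the - strand, so that only 76 bases lie between them. Capitals mark the GC box GGGCGG, searched on both strands.
Col18a1, 250 bases before the start, chr20:11473395-11473644, + strand: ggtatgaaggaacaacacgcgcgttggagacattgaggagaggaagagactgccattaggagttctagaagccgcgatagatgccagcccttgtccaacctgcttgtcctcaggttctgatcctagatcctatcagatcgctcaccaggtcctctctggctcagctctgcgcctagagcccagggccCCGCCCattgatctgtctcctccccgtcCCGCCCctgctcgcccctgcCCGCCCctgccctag
Itgav, 250 bases before the start, chr3:89245132-89245381, + strand: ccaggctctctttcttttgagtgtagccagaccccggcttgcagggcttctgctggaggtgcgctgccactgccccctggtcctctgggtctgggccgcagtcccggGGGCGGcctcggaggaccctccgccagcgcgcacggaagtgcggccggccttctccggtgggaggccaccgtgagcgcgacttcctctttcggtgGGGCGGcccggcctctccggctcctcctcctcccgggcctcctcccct
Col4a1 and Col4a2, the 76 bases between the starts, chr16:84885521-84885596, + strand: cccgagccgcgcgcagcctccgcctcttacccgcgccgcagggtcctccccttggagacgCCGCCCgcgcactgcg

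GC boxes stood in all 3, with 3 before Col18a1, 2 before Itgav and 1 between the collagen IV genes. A GC box was found in 30.5% of the 33469 promoters of the table over the same 250 bases, in 18.1% over the last 76 bases, and in 18 of the 32 members. The ETS motif CCGGAAG, the STAT motif TTCNNNGAA and the AP-1 motif TGANTCA were in none of the 3 stretches. Of all promoters 7.27%, 7.67% and 6.34% held them over 250 bases, and 2 of the 32 members held each. The shorter letters GGAA, a part of that ETS motif, do stand before Col18a1 and Itgav and were not counted. A match describes letters in the window and is not a site of binding, and the absence of a match says nothing of the factor.

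Over all arrays few of these genes were called against sham: a basement membrane collagen, integrin subunits and an integrin-binding protein. More were called with the pair as a term, as given below, and a gene not called was not shown to be unchanged. Col18a1 rose at 12 h and 18 h, Itgb4 rose at 18 h, Itgav fell at both times and Itgb1bp1 rose at 12 h. At 12 h 2 of the 41 genes rose and 1 fell, beside 7.86% of all tested probe sets called (3.77% higher and 4.09% lower). At 18 h again 2 rose and 1 fell, beside 10.2% called (5.2% higher and 4.96% lower). At 6 h 0 of 41 were called and 1 had an unadjusted p under 0.05, beside 0.283% of all probe sets called. The counts of 3 in 41 were close to the background at both times, and 38 of the 41 were not called at 12 h, nor at 18 h.

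Col18a1 encodes the core protein of collagen XVIII, a heparan sulfate proteoglycan of epithelial and vascular basement membranes whose end piece is endostatin. Sham replicates 3 and 4 read 8.91 and 8.21, and sham replicates 1 and 2 read 9.67 and 8.09. The 6 h arrays read 7.26 and 8.79 in replicates 3 and 4, and 8.07 and 8.65 in replicates 1 and 2. The 12 h arrays read 9.76 and 9.60 in replicates 3 and 4 and 10.67 and 10.73 in replicates 1 and 2. The 18 h arrays read 10.10 and 10.43 in replicates 3 and 4 and 10.12 and 10.96 in replicates 1 and 2. All 4 arrays at 18 h lay above all 4 sham arrays, while at 12 h the lowest ligated array lay below the highest sham array.

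The mean level was 10.19 ± 0.59 at 12 h, against 8.72 ± 0.73 in sham (SD, n = 4 each), a log2 change of 1.47 ± 0.40 (SE, limma's adjusted p = 0.0392). At 18 h the mean was 10.40 ± 0.40, against the same sham mean, a change of 1.68 ± 0.40 (limma's adjusted p = 0.0162) or 3.21-fold. Replicates 3 and 4 gave a change of 1.12 at 12 h and 1.71 at 18 h, and replicates 1 and 2 gave 1.82 and 1.66. Fitted alone, neither pair passed the threshold at 12 h (limma's adjusted p = 0.274 for replicates 3 and 4 and 0.12 for replicates 1 and 2) or at 18 h (0.0993 and 0.143). The rise was also called against 6 h, by 2.00 at 12 h (limma's adjusted p = 0.0137) and by 2.21 at 18 h (limma's adjusted p = 0.00407), where no arrays overlapped. A second probe set of Col18a1 gave 1.84 ± 0.32 at 12 h and 2.18 ± 0.32 at 18 h (limma's adjusted p = 0.00221 and 0.000474). The call of the main probe set at 12 h was lost in 7 of the 16 fits that left out 1 array. Leaving out a sham array gave adjusted p = 0.121 (replicate 2), 0.0713 (replicate 3) and 0.122 (replicate 4). Leaving out an EDL 12 h array gave 0.119 (replicate 1) and 0.109 (replicate 2), and EDL 6 h replicate 1 or EDL 18 h replicate 1 gave 0.053 and 0.0504. At 18 h the call was lost in 3 of the 16 fits, with 0.0542 and 0.0577 when sham replicate 2 or 4 was left out and 0.052 for EDL 18 h replicate 2. With no minimum level neither time was called (adjusted p = 0.125 at 12 h and 0.0599 at 18 h). Against 6 h the call at 12 h was lost without EDL 12 h replicate 1 (0.0505).

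**Figure D1:**
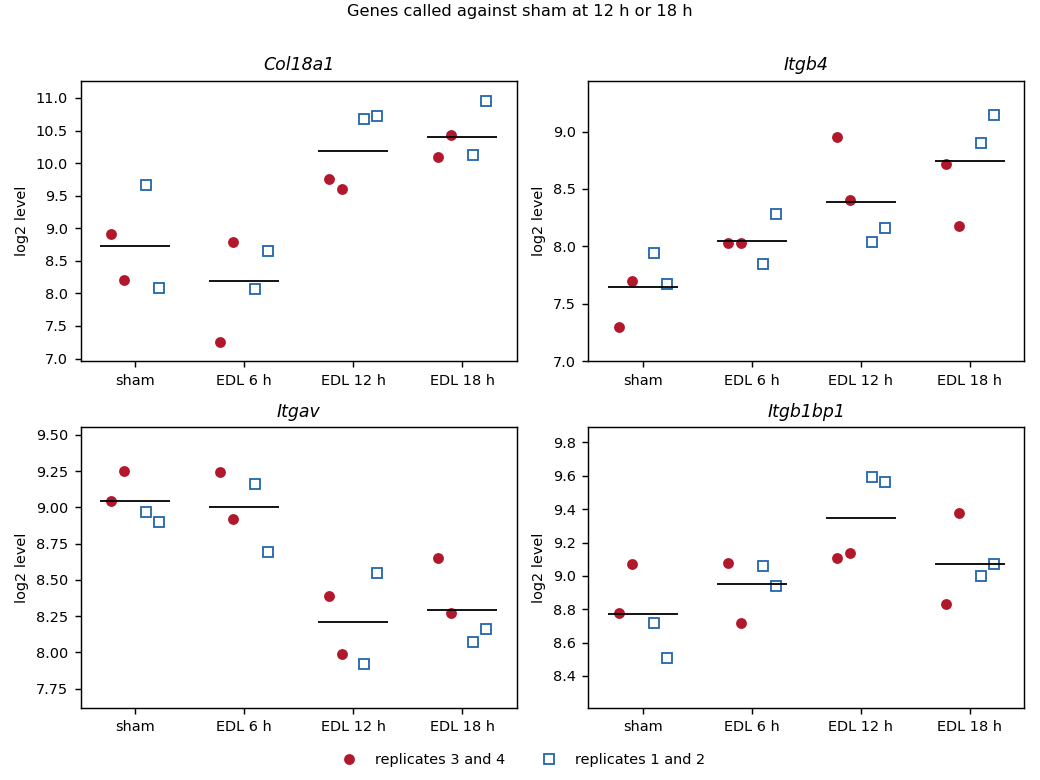
Log2 level (vertical axis, deposited values) of the 4 genes called against sham, by group, with 1 point per array and the mean of 4 arrays as a line. Filled circles are replicates 3 and 4 and open squares replicates 1 and 2. Col18a1 lay between 10.10 and 10.96 at 18 h and between 8.09 and 9.67 in sham, and Itgav between 8.07 and 8.65 at 18 h and between 8.90 and 9.25 in sham.

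Itgb4 encodes the beta-4 subunit, which with alpha-6 forms the laminin receptor of hemidesmosomes, the rivets that fasten epithelial cells to the basement membrane. Sham replicates 3 and 4 read 7.30 and 7.70, and sham replicates 1 and 2 read 7.94 and 7.67. The 6 h arrays read 8.03 and 8.03 in replicates 3 and 4 and 7.85 and 8.28 in replicates 1 and 2. At 12 h the values were 8.95 and 8.40 in replicates 3 and 4 and 8.04 and 8.16 in replicates 1 and 2, and at 18 h they were 8.72 and 8.18 in replicates 3 and 4 and 8.90 and 9.14 in replicates 1 and 2. The arrays at 12 h and at 18 h lay above every sham array.

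Itgb4 averaged 8.74 ± 0.41 at 18 h and 7.65 ± 0.26 in sham (SD, n = 4 each), a change of 1.08 ± 0.22 (limma's adjusted p = 0.00589) or 2.12-fold. Replicates 3 and 4 gave 0.95 and replicates 1 and 2 gave 1.22; fitted alone, replicates 3 and 4 missed the threshold (limma's adjusted p = 0.0885). At 12 h the change of 0.73 ± 0.22 missed the threshold over all arrays (limma's adjusted p = 0.0591) and passed it with the pair as a term (limma's adjusted p = 0.0453). Replicates 3 and 4 gave 1.17 there and replicates 1 and 2 gave 0.30. The call at 18 h held in all 16 fits without 1 array.

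Of the other hemidesmosome genes on the array, no collagen, laminin or integrin was called against sham. Itga6, its alpha-6 partner, had changes of -0.26 ± 0.22 at 12 h and 0.45 ± 0.22 at 18 h, neither called (limma's adjusted p = 0.597 and 0.247), and its other 2 tested probe sets gave -0.47 and -0.02 at 18 h, the opposite sign. Col17a1, the collagen that spans the hemidesmosome, lay between 2.22 and 2.24 on all arrays and was not tested. Plec, encoding plectin, which ties beta-4 to keratin filaments and is no member, rose by 0.70 ± 0.15 at 18 h (limma's adjusted p = 0.00709). Dst and Cd151, from the same list of other receptors as Plec, were tested and not called against sham. Among laminin chains of epithelial basement membranes, Lamb3 was tested and not called at 12 h or 18 h, and Lama3 lay between 2.40 and 3.18 on all arrays and was not tested.

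Itgav encodes the alpha-v subunit, which joins beta-1, beta-3, beta-5, beta-6 or beta-8 and in epithelia activates latent TGF-beta. Sham replicates 3 and 4 read 9.04 and 9.25, and sham replicates 1 and 2 read 8.97 and 8.90. The 6 h arrays read 9.24 and 8.92 in replicates 3 and 4 and 9.16 and 8.69 in replicates 1 and 2. The 12 h arrays read 8.39 and 7.99 in replicates 3 and 4 and 7.92 and 8.55 in replicates 1 and 2, and those at 18 h read 8.65 and 8.27 in replicates 3 and 4 and 8.07 and 8.16 in replicates 1 and 2. Every array at 12 h and 18 h lay below every sham array and below every 6 h array.

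The mean of Itgav was 8.21 ± 0.31 at 12 h and 8.29 ± 0.25 at 18 h, against 9.04 ± 0.15 in sham (SD, n = 4 each). The change was -0.83 ± 0.17 at 12 h (limma's adjusted p = 0.00857) and -0.75 ± 0.17 at 18 h (limma's adjusted p = 0.0118). It was -0.95 at 12 h and -0.69 at 18 h in replicates 3 and 4, and -0.70 at 12 h and -0.82 at 18 h in replicates 1 and 2. Both calls held in all 16 fits without 1 array, and neither pair fitted alone passed (limma's adjusted p = 0.0667 and 0.115 for replicates 3 and 4 at 12 h and 18 h, 0.17 and 0.12 for replicates 1 and 2). Its other 2 tested probe sets gave -0.83 and -1.05 at 12 h and -0.96 and -1.42 at 18 h, with the same sign and no call (limma's adjusted p = 0.0575 to 0.313). Against 6 h the fall was also called, by -0.79 at 12 h and -0.72 at 18 h (limma's adjusted p = 0.0202 and 0.02). Those 2 calls were lost without EDL 6 h replicate 1 (adjusted p = 0.0618 and 0.0628) and without EDL 6 h replicate 3 (0.0717 and 0.0678), and with no minimum level (0.0575 and 0.0557). The call at 12 h was also lost without EDL 12 h replicate 1 (0.0713) or replicate 4 (0.0518), and that at 18 h without EDL 18 h replicate 1 (0.0636) or replicate 2 (0.0556) and with the 3 array sets as a term (0.0541).

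Among the beta subunits that pair with alpha-v, none was called against sham. Itgb5 changed by -0.18 ± 0.28 at 12 h and -0.40 ± 0.28 at 18 h. Itgb6, the epithelial partner, changed by -0.30 ± 0.50 at 12 h and 0.73 ± 0.50 at 18 h. At 18 h Itgb6 read 6.95 and 6.50 in replicates 3 and 4 and 5.79 and 6.19 in replicates 1 and 2, against 6.02 and 5.84 in replicates 3 and 4 and 4.97 and 5.68 in replicates 1 and 2 of sham. Within each pair the 18 h arrays of Itgb6 lay above the sham arrays, and over all arrays the groups overlapped. Itgb3 was at or near the floor and was not tested, and Itgb1, the subunit shared by most laminin and collagen receptors, changed by -0.24 ± 0.16 at 12 h and -0.09 ± 0.16 at 18 h.

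Itgb1bp1 encodes ICAP-1, a cytoplasmic protein that binds the tail of beta-1 and is no integrin itself. The 12 h arrays read 9.11 and 9.14 in replicates 3 and 4 and 9.59 and 9.56 in replicates 1 and 2, against 8.78 and 9.07 in replicates 3 and 4 and 8.72 and 8.51 in replicates 1 and 2 of sham. All 4 arrays at 12 h were above all 4 sham arrays, by little in replicates 3 and 4. The change was 0.58 ± 0.16 (limma's adjusted p = 0.0381), being 0.20 in replicates 3 and 4 and 0.95 in replicates 1 and 2, and at 18 h it was 0.30 ± 0.16 and not called (limma's adjusted p = 0.299). The call at 12 h was lost in 8 of the 16 fits that left out 1 array: those leaving out EDL 12 h replicate 1 (adjusted p = 0.121) or 2 (0.106), sham replicate 1 (0.0725), 2 (0.117) or 3 (0.0808), EDL 6 h replicate 1 (0.05) or 2 (0.0515), or EDL 18 h replicate 1 (0.0504). With all probe sets of the symbol averaged, its change was 0.29 and not called (limma's adjusted p = 0.0636).

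The interstitial collagens and collagen VI differed between the replicate pairs. All 5 tested fibrillar collagen genes, all 3 collagen VI genes and 16 of all 21 tested collagens were lower in replicates 3 and 4 than in replicates 1 and 2, over 8 arrays each and with the group in the fit. In all, 23 of the 41 genes were lower and 2 were higher, and their median difference was -0.57. Over all tested probe sets 36.9% were called, 18.7% lower and 18.3% higher, with a median difference of 0.01, so that the share of members lower, but not the share higher, was above the background. The 9 tested small leucine-rich proteoglycans, which coat collagen fibrils, were all lower too, with a median of -1.02.

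**Figure D2:**
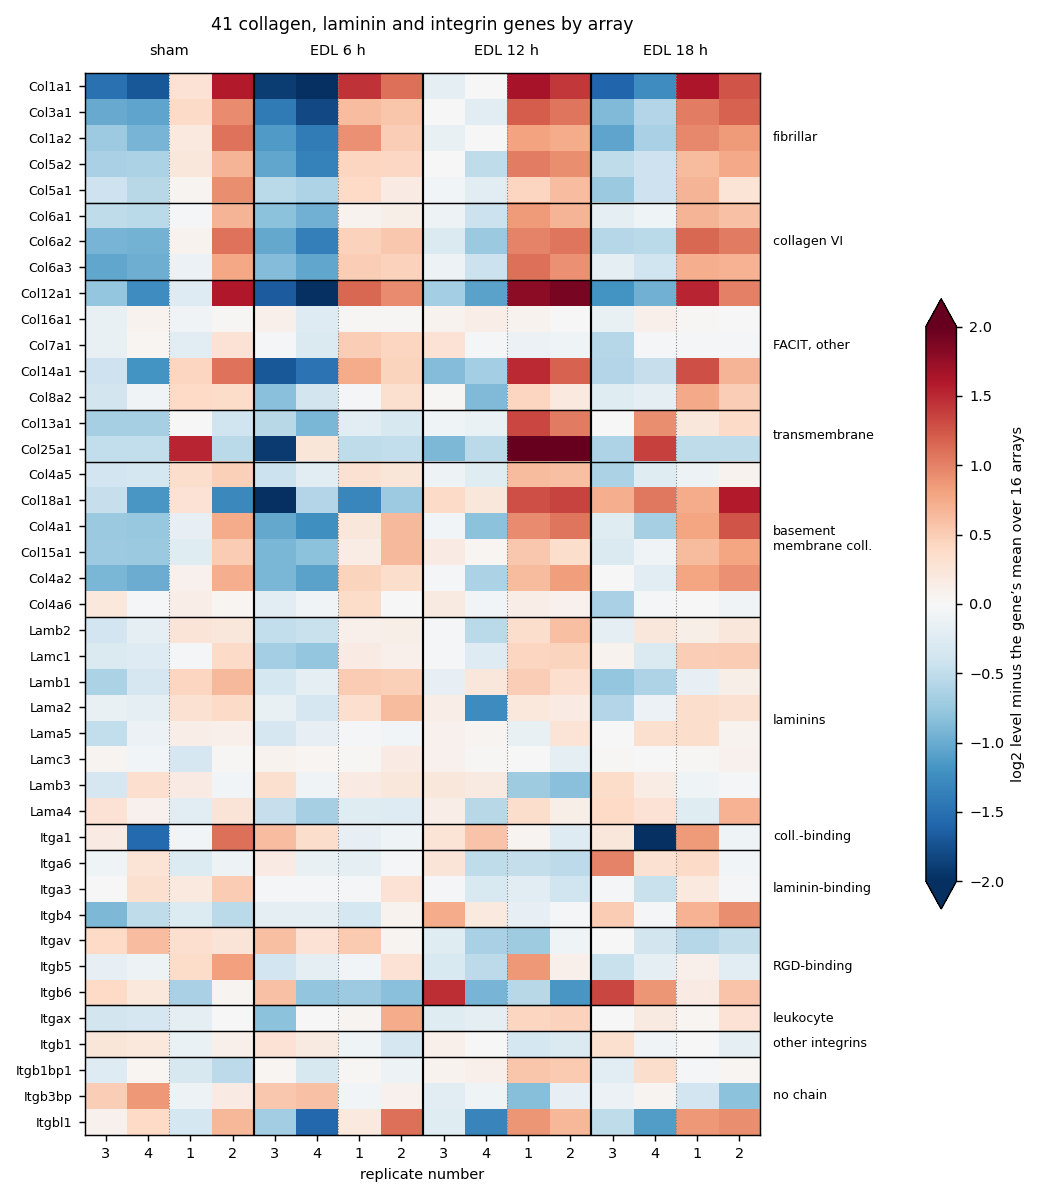
Log2 level minus the gene's own mean over the 16 arrays (colour, red above and blue below) for the 41 tested genes (rows, by role) on each array (columns, by group, with replicates 3 and 4 left of replicates 1 and 2). The rows of fibrillar collagens, collagen VI, Col12a1 and Col14a1 are mostly blue in replicates 3 and 4, paler at 12 h, and mostly red in replicates 1 and 2, while Col18a1 and Itgb4 are redder and Itgav bluer at 12 h and 18 h than in sham. The colour stops at 2 on either side.

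Col1a1, a chain of collagen I, had the largest difference between pairs. In replicates 3 and 4 it read 9.98 and 9.77 in sham, 9.57 and 9.22 at 6 h, 11.28 and 11.47 at 12 h and 9.88 and 10.23 at 18 h. In replicates 1 and 2 it read 11.76 and 13.05 in sham, 12.91 and 12.57 at 6 h, 13.11 and 12.89 at 12 h and 13.09 and 12.72 at 18 h. No array of replicates 3 and 4 reached the lowest array of replicates 1 and 2, and the mean difference was -2.58 ± 0.23, a 6.00-fold lower level (limma's adjusted p = 4.49e-06). Its partner chain Col1a2 differed by -1.51 ± 0.16 and Col3a1, the chain of collagen III, by -1.75 ± 0.13, also with no overlap (limma's adjusted p = 2.13e-05 and 9.65e-07). The collagen V chains Col5a2 and Col5a1, which seed fibrils, differed by -1.27 ± 0.10 and -0.89 ± 0.12.

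Col12a1 and Col14a1, collagens that sit on the surface of fibrils, differed by -2.41 ± 0.24 and -1.84 ± 0.16 with no overlap between pairs (limma's adjusted p = 1.17e-05 and 3.31e-06). Another collagen of that class, Col16a1, differed by -0.01 ± 0.06 and lay between 7.21 and 7.60 on all 16 arrays. The 3 chains of collagen VI, which forms beaded filaments around cells, differed by -0.91 ± 0.09 (Col6a1), -1.60 ± 0.12 (Col6a2) and -1.26 ± 0.11 (Col6a3). Itgbl1, which encodes a secreted protein resembling a beta subunit, differed by -1.24 ± 0.29, but in sham alone by 0.08.

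Basement membrane collagens did not form one block. The ubiquitous collagen IV chains Col4a1 and Col4a2, whose starts flank the 76 bases shown above, differed by -1.38 ± 0.15 and -1.19 ± 0.11. Col4a5 differed by -0.64 ± 0.08 and Col4a6, from the chain set of some epithelial and muscle basement membranes, by -0.17 ± 0.10, which was not called (limma's adjusted p = 0.186). Col15a1, collagen XV of vessels and muscle, differed by -0.84 ± 0.14, and Col18a1 by -0.49 ± 0.26, which was not called (limma's adjusted p = 0.164).

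Among laminins, Lamb1, Lama2, Lamc1 and Lamb2 were lower in replicates 3 and 4, by -0.71 ± 0.10, -0.67 ± 0.15, -0.62 ± 0.08 and -0.50 ± 0.10. Lama5, the alpha chain of adult epithelial and vascular basement membranes, differed by -0.17 ± 0.09 and Lamb3 by 0.29 ± 0.15, neither called (limma's adjusted p = 0.16 and 0.136). Among integrin subunits, Itgb1 was higher in replicates 3 and 4 by 0.32 ± 0.07 (limma's adjusted p = 0.00454), with 11.32 on average against 11.01 in replicates 1 and 2. A second Itgb1 probe set had the opposite sign (-0.20, limma's adjusted p = 0.107), and the mean of its probe sets gave 0.06, which was not called (limma's adjusted p = 0.591). Itgb5 and Itgax, a subunit of dendritic cells and macrophages, were lower by -0.57 ± 0.13 and -0.45 ± 0.14. Itga3, Itga6, Itgb4, Itgav and Itgb6 were not called, and neither was Itga1, whose means were under 5. The other probe sets of Itgav and Itga6 had the opposite sign to those used, and 1 of Itgav was called lower (-0.73 ± 0.25, limma's adjusted p = 0.0353), while those of Itga6 gave -0.47 and -0.44 against 0.32. Itgb3bp, which encodes a nuclear protein of the centromere named for binding beta-3, was higher by 0.54 ± 0.11.

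**Figure D3:**
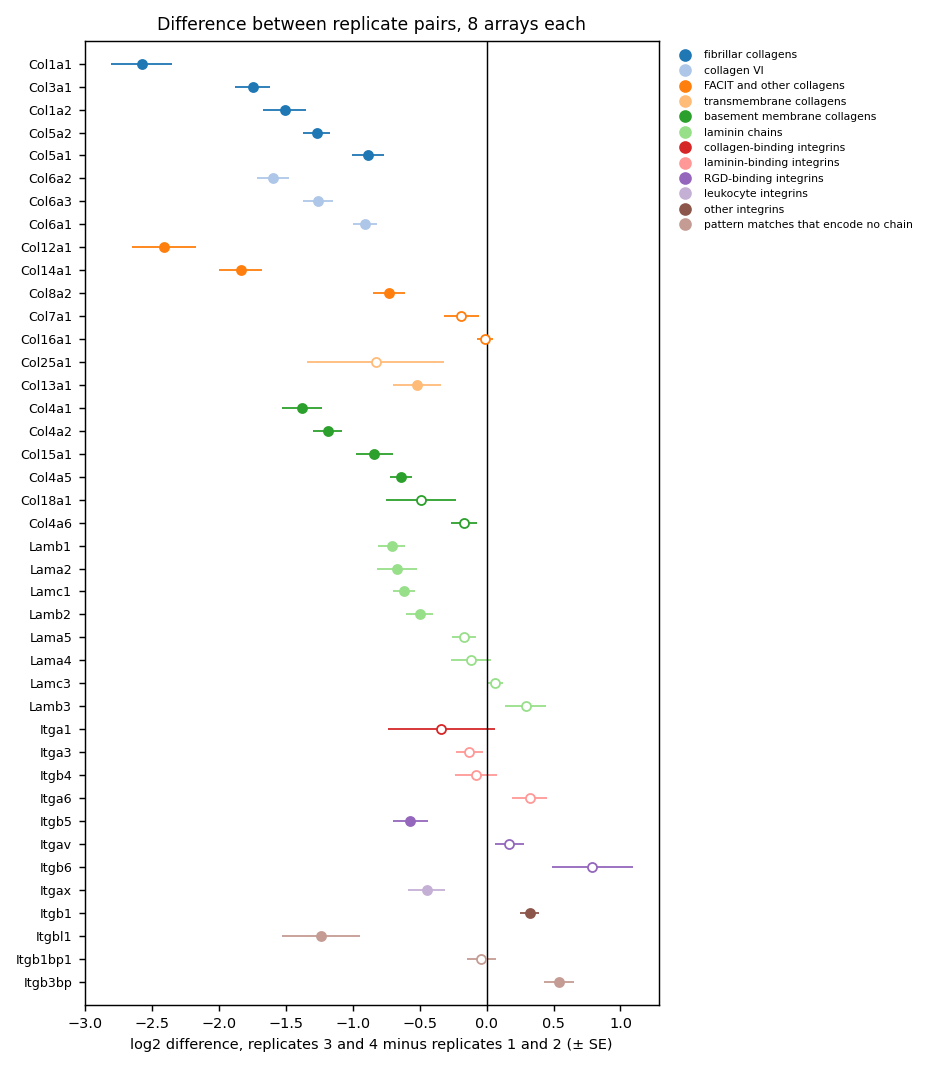
Log2 difference, replicates 3 and 4 minus replicates 1 and 2, for the 41 tested genes (points, 8 arrays each, bars ± SE from limma), grouped by role, with filled points called. Fibrillar collagens run from -2.58 to -0.89 and collagen VI from -1.60 to -0.91, while Itgb1 lies at 0.32 and Itgb3bp at 0.54.

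With the pair as a term, the spread that these differences add to each group was taken out, and more matrix genes passed the test. At 12 h 7 genes were then called higher (Col18a1, Col13a1, Col1a1, Col3a1, Col6a3, Itgb1bp1 and Itgb4) and 3 lower (Itgav, Itga3 and Itgb3bp), beside 12.9% of all tested probe sets (6.63% higher and 6.31% lower). At 18 h 5 were called higher (Col18a1, Itgb4, Col13a1, Col4a2 and Col6a3) and 2 lower (Itgav and Itgb3bp), beside 16.2% (8.54% higher and 7.71% lower). At 6 h 0 were called and 2 had an unadjusted p under 0.05, beside 0.41% called. The 10 of 41 at 12 h were a larger share than the background and the 7 of 41 at 18 h were close to it.

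Of the 21 collagens 19 had a change above 0 at 12 h and 16 at 18 h, beside 54.2% and 51.8% of all tested probe sets. The collagen medians were 0.46 and 0.26, beside 0.02 and 0.01 over all tested probe sets. Over all arrays 20 of these 21 were not called at 12 h, nor at 18 h. The 13 fibroblast markers without collagens had medians of 0.04 at 12 h and -0.03 at 18 h over all arrays, but the pairs differed. The mean level of the 15 matched markers in replicates 3 and 4 was 7.15 at 12 h and 7.25 at 18 h, against 7.29 in sham. In replicates 1 and 2 it was 8.39 at 12 h and 8.15 at 18 h, against 7.89 in sham, so that it was higher there beside the collagens, and its part in their changes was not tested. With the pair as a term 0 of them were called at 12 h and 1 at 18 h. Of 9 smooth muscle markers 0 were called by limma at 12 h or 18 h in that fit, with medians of 0.10 and 0.16; 0 and 1 had an unadjusted p under 0.05.

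Col3a1, not called over all arrays, was called with that term. At 12 h it read 11.10 and 10.90 in replicates 3 and 4 and 12.32 and 12.18 in replicates 1 and 2, against 10.10 and 10.06 in replicates 3 and 4 and 11.49 and 12.06 in replicates 1 and 2 of sham. Within each pair the ligated arrays lay above the sham arrays, yet over all arrays the groups overlapped. The change of 0.70 had an SE of 0.68 over all arrays (limma's adjusted p = 0.67) and of 0.18 with the pair as a term (limma's adjusted p = 0.0208). Replicates 3 and 4 gave 0.92 and replicates 1 and 2 gave 0.47. Col1a1 changed by 1.05 at 12 h, with an SE of 1.02 over all arrays and 0.32 with the pair (limma's adjusted p = 0.67 and 0.0478), being 1.50 in replicates 3 and 4 and 0.59 in replicates 1 and 2. At 18 h neither was called in either fit, with changes of 0.37 for Col3a1 and 0.34 for Col1a1.

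Col6a3 changed by 0.72 at 12 h and 0.55 at 18 h, called with the pair as a term (SE 0.16, limma's adjusted p = 0.00949 and 0.0313) and not over all arrays. Its change at 12 h was alike in both pairs, 0.75 in replicates 3 and 4 and 0.68 in replicates 1 and 2. A second probe set of Col6a3 gave 0.33 ± 0.79 at 12 h and 0.03 ± 0.79 at 18 h over all arrays, neither called. Col6a1 and Col6a2 changed by 0.35 and 0.44 at 12 h and by 0.34 and 0.45 at 18 h, with no call in either fit. Col13a1, a transmembrane collagen found at cell junctions, changed by 0.97 at 12 h and 0.80 at 18 h, called with the pair as a term (limma's adjusted p = 0.0246 and 0.0486). At 12 h it read 7.83 and 7.79 in replicates 3 and 4 and 9.26 and 8.96 in replicates 1 and 2, against 7.26 and 7.26 in replicates 3 and 4 and 7.93 and 7.52 in replicates 1 and 2 of sham.

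Col4a2 was called with the pair as a term at 18 h, with a change of 0.64 ± 0.16 (limma's adjusted p = 0.0139). At 18 h it read 8.38 and 8.16 in replicates 3 and 4 and 9.17 and 9.29 in replicates 1 and 2, against 7.47 and 7.38 in replicates 3 and 4 and 8.47 and 9.10 in replicates 1 and 2 of sham. Col4a1, its neighbour across the 76 bases, changed by 0.51 ± 0.22 with the pair as a term and was not called (limma's adjusted p = 0.132). Col15a1 changed by 0.57 at both times and was not called in either fit.

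**Figure D4:**
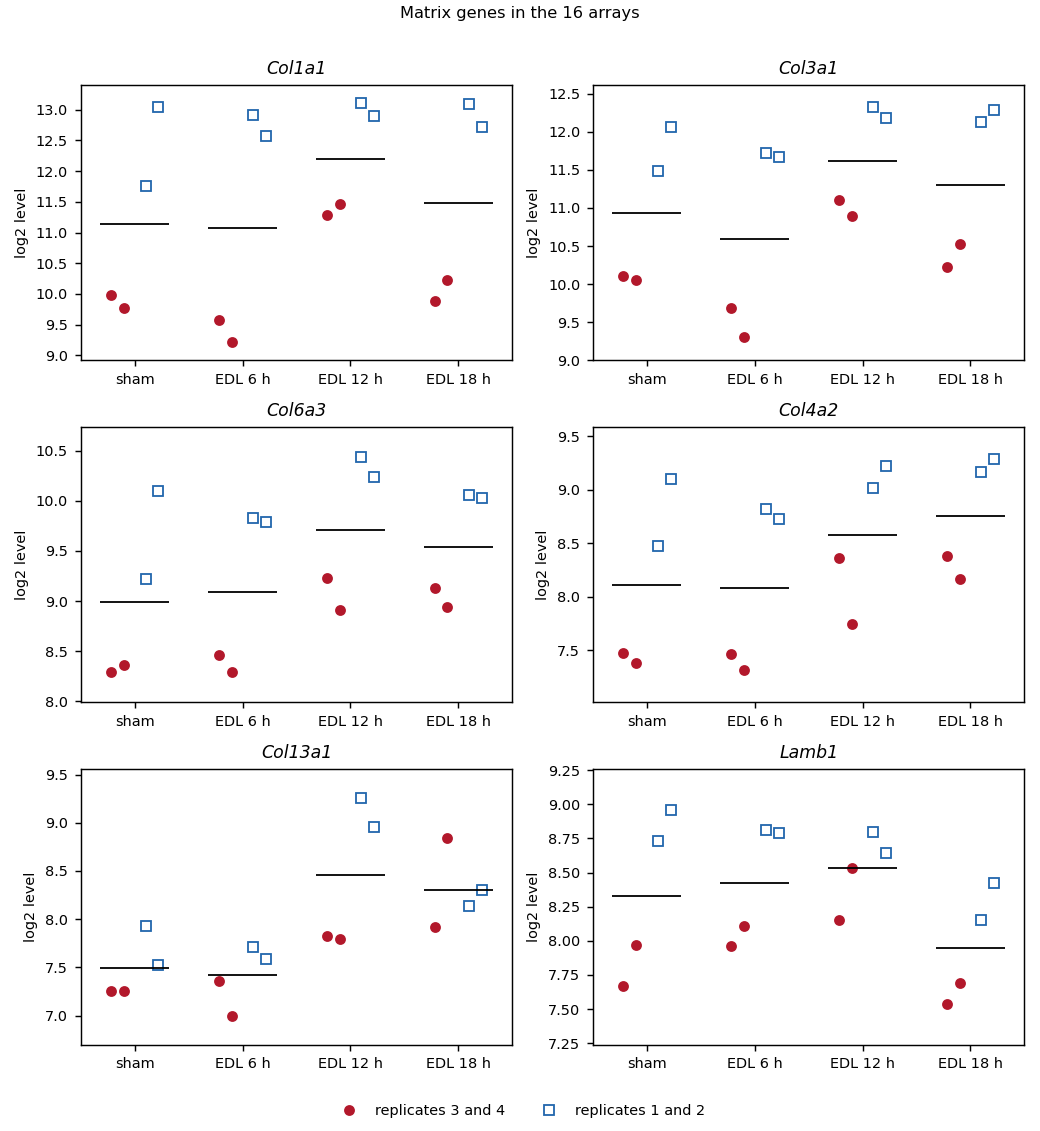
Log2 level (vertical axis) of 6 matrix genes by group, with 1 point per array and the mean of 4 arrays as a line; filled circles are replicates 3 and 4 and open squares replicates 1 and 2. In Col1a1 and Col3a1 the circles lie below the squares in every group, and both pairs are higher at 12 h than in sham by 1.50 and 0.59 for Col1a1.

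These calls depended on how the arrays were divided. The arrays were also put in 3 sets, by the replicate pair and, within replicates 3 and 4 only, by the dap control. Replicates 3 and 4 of sham and 6 h then stood apart from those of 12 h and 18 h. Col18a1, Itgb1bp1 and Itgav were called in that fit at 12 h and Col18a1, Itgb4, Itgav and Lamb1 at 18 h. Beside them 8.81% of all tested probe sets were called at 12 h (4.74% higher and 4.06% lower). At 18 h 10.1% were called (5.51% higher and 4.61% lower). Col1a1, Col3a1, Col6a3 and Col13a1 were then not called at 12 h (limma's adjusted p = 0.29, 0.169, 0.0762 and 0.0735). In that division no set of replicates 3 and 4 holds both sham and 12 h or 18 h arrays. Within replicates 1 and 2 alone, 2 were called higher and 1 lower at 12 h and 1 higher at 18 h, beside 4.6% and 6.17% of all probe sets; the named genes among them were Col13a1, Itgb1bp1 and Lamb3 (lower) at 12 h and Itgb4 at 18 h. Within replicates 3 and 4 alone, 3 were called higher and 1 lower at 12 h and 2 higher and 1 lower at 18 h, beside 4.27% and 7.68%, with Col1a1 and Col3a1 among the genes higher at 12 h and Col6a3 among those at 18 h.

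Of the 8 tested laminins 0 were called by limma at any time against sham, over all arrays or with the pair as a term, and their medians were -0.01, 0.08 and 0.11 at 6, 12 and 18 h. Over all arrays 1 had an unadjusted p under 0.05 at 6 h (Lama4, with a change of -0.51 ± 0.22) and 0 at 12 h and 18 h. Lamb1, the beta chain of several laminins, changed by -0.39 ± 0.30 at 18 h, being -0.21 in replicates 3 and 4 and -0.56 in replicates 1 and 2, and was called only with the 3 sets as a term, by -0.57 ± 0.15 (limma's adjusted p = 0.0303). Lamb2 and Lamc1, which with Lama5 form a laminin of mature basement membranes, changed by 0.12 ± 0.24 and 0.25 ± 0.26 at 18 h, and Lama5 by 0.27 ± 0.15. Lamb3 at 12 h had a change of 0.20 in replicates 3 and 4 and of -0.83 in replicates 1 and 2.

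**Figure D5:**
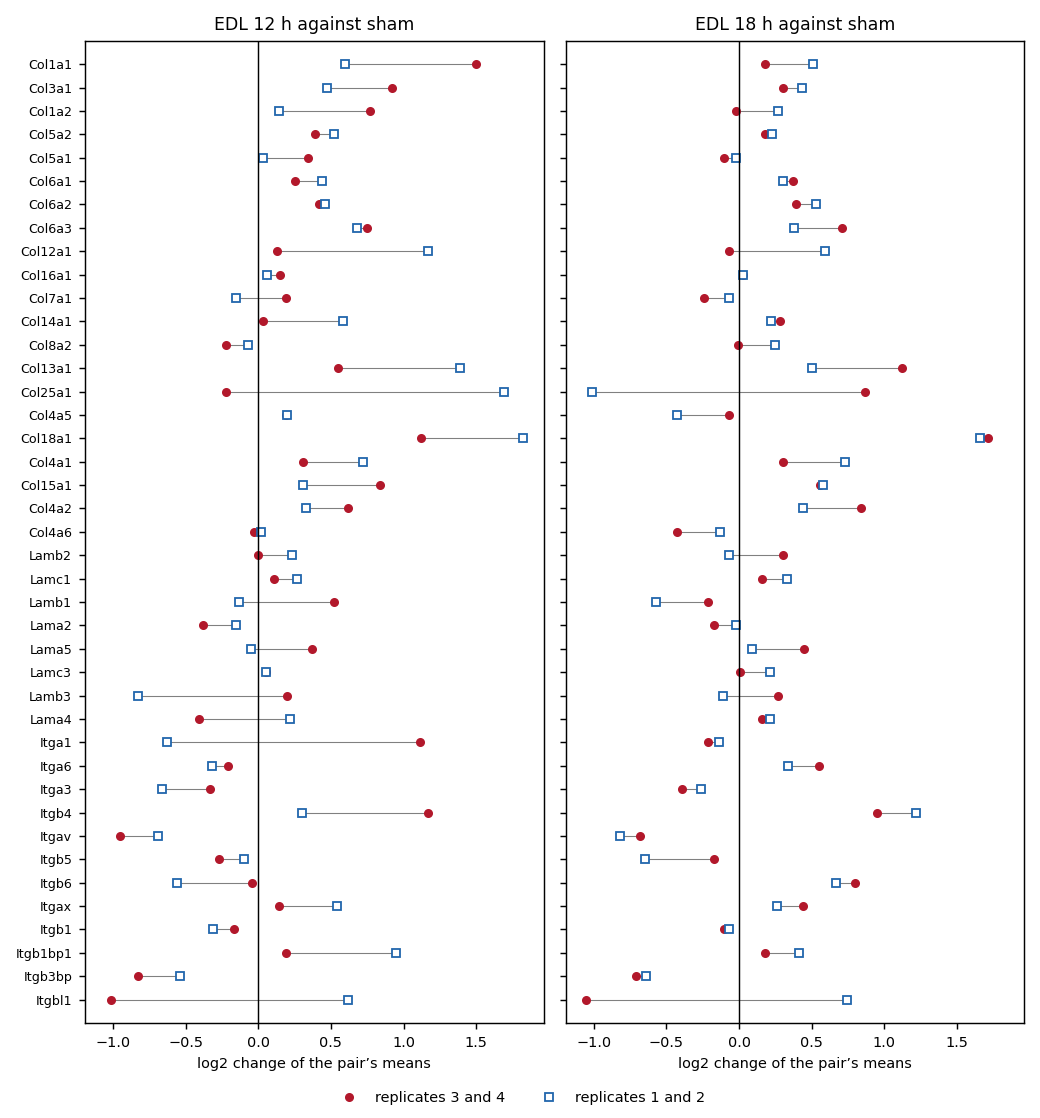
Log2 change against sham at 12 h (left) and 18 h (right) of the 41 tested genes, taken between means of 2 arrays, in replicates 3 and 4 (filled circles) and in replicates 1 and 2 (open squares); no error is drawn. Col18a1 lies at 1.71 and 1.66 at 18 h and Itgav at -0.69 and -0.82, while Lamb3 at 12 h lies on both sides of 0; for Itga1 and, at 18 h, Col25a1 the means of all 4 arrays are under 5 in both groups, so their plotted changes are not told from background.

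Whether the change after ligation differed between the pairs was tested as an interaction. In these tests 0 of the 41 genes were called at 6 h, 12 h or 18 h, beside 0%, 0.0447% (0.0149% higher and 0.0298% lower) and 0.41% (0.0298% higher and 0.38% lower) of all probe sets. Lamb3 at 12 h had the smallest p of any member there, with a difference of 1.03 ± 0.29 (unadjusted p = 0.0046, limma's adjusted p = 0.204). With an unadjusted p under 0.05 there were 1, 6 and 1 members at the 3 times. A difference that missed this threshold was not shown to be absent.

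Integrin subunits of immune cells were mostly at background. Itgax, tested, changed by 0.34 ± 0.26 at 12 h and 0.35 ± 0.26 at 18 h. Itgb2 in replicates 3 and 4 read 3.03 and 3.14 in sham, 2.94 and 3.02 at 6 h, 3.23 and 3.77 at 12 h and 4.16 and 3.81 at 18 h. In replicates 1 and 2 it read 3.31 and 3.33 in sham, 3.19 and 3.41 at 6 h, 4.64 and 5.02 at 12 h and 4.91 and 4.75 at 18 h. These levels are at or under 5 except for 1 array, so no size of change is given. The summed level of 5 neutrophil markers was 8.64 and 10.79 on the replicates 1 and 2 of 12 h and between 4.70 and 5.44 on the other 14 arrays. Of those 5 markers 3 were under 5 on all arrays, Cxcr2 and Mmp8 at the floor among them, so that S100a8 and S100a9 made up the rise. Macrophage markers had 1 of 11 called higher at 12 h (Fcgr3a, by 1.34 ± 0.32) and 2 at 18 h (Cd14 by 1.92 ± 0.46 and Fcgr3a by 1.06 ± 0.32). Beside them 3.77% of all tested probe sets were called higher at 12 h and 5.2% at 18 h. The sham means of Fcgr3a and Cd14 were 4.55 and 4.9, under 5, so these sizes are not exact. The mean level of the 13 matched macrophage markers in replicates 3 and 4 was 5.45 at 12 h and 6.04 at 18 h, against 5.67 in sham. In replicates 1 and 2 it was 7.04 at 12 h and 6.90 at 18 h, against 6.09 in sham. The part of these cells in the collagen and integrin values was not tested.

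Genes that work with these chains were followed in 6 further lists. Over all tested probe sets 3.77% were called higher and 4.09% lower at 12 h, and 5.2% higher and 4.96% lower at 18 h. Of 24 tested adaptors that couple integrins to actin, 3 rose at 12 h and 3 at 18 h, and 0 fell. Nedd9, a docking protein of focal adhesions, rose by 0.88 ± 0.13 and 0.72 ± 0.13 at the 2 times, and Actn1, an actin crosslinker, by 0.52 ± 0.15 and 0.83 ± 0.15. Bcar1, the relative of Nedd9, rose by 0.71 ± 0.20 at 12 h, and Tns3, a tensin that binds beta subunit tails, by 0.95 ± 0.13 at 18 h. Of 13 other receptors for collagen and laminin, Sdc1 rose by 1.12 ± 0.25 at 12 h and 2.06 ± 0.25 at 18 h, and Plec as given above. Sdc1 encodes syndecan-1, an epithelial heparan sulfate proteoglycan that binds matrix, and its mean level was 11.18 at 18 h, against 9.12 in sham.

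Of 16 genes that process collagen, Fkbp10, a chaperone of procollagen in the endoplasmic reticulum, rose by 1.04 ± 0.30 at 12 h and Loxl1, a crosslinking enzyme, fell by 1.09 ± 0.25 at 18 h. The shares of all tested probe sets given above for the adaptors stand beside these counts and those that follow. Of 13 matrix glycoproteins and integrin ligands, Ccn2, connective tissue growth factor, fell by 1.10 ± 0.29 at 12 h. Of 9 basement membrane partners and 9 small leucine-rich proteoglycans 0 were called by limma against sham at 12 h or 18 h over all arrays, where 0 and 0 at 12 h and 0 and 1 at 18 h had an unadjusted p under 0.05; with the pair as a term 1 partner was higher at 12 h and 1 proteoglycan lower at each time. Among general epithelial markers Cldn4 and Cldn3 rose, by 1.44 ± 0.22 and 0.52 ± 0.16 at 18 h, and of 6 endothelial markers Kdr rose by 0.95 ± 0.21 at 18 h. Of 4 basal cell markers 0 were called by limma against sham over all arrays (0 with an unadjusted p under 0.05 at 12 h and 1 at 18 h). Their mean level in replicates 3 and 4 was 9.86 at 12 h and 9.89 at 18 h, against 9.54 in sham, and in replicates 1 and 2 it was 9.04 at 12 h and 9.76 at 18 h, against 9.41 in sham. The part of epithelial, basal and endothelial cells in the Col18a1 and Itgb4 values was not tested. The 1 tested lymphocyte, 1 platelet, 2 nerve and 3 fat markers had 0 calls against sham (0 with an unadjusted p under 0.05), and all 3 tested sperm markers fell at 12 h and 18 h. The summed level of the 6 fat markers in replicates 3 and 4 was 5.71 to 7.53 at 12 h and 6.00 to 6.38 at 18 h, against 6.84 to 7.35 in sham. In replicates 1 and 2 it was 8.93 to 10.05 at 12 h and 9.23 to 9.24 at 18 h, against 7.50 to 7.84 in sham, and its part in the matrix values was not tested. Of those 6 markers 3 were under 5 on all arrays, with highest values of 2.36 (Adipoq), 2.29 (Plin1) and 2.94 (Cidec). Lpl, Fabp4 and Cfd thus made up the summed level. As a check of the labels, Etv5, a transcription factor of the segment that depends on testicular fluid, fell by 5.64 ± 0.57 at 12 h and 4.37 ± 0.57 at 18 h. The mean of Etv5 was 9.46 in sham and 3.82 at 12 h, the latter under 5, so the size at 12 h is not exact.

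Between the ligated groups, Col18a1 and Itgav were the members called over all arrays at 12 h against 6 h and at 18 h against 6 h, beside 4.28% (1.82% higher and 2.46% lower) and 7.88% (3.54% higher and 4.34% lower) of all probe sets. By limma 0 of 41 were called at 18 h against 12 h, where 1 had an unadjusted p under 0.05 and 0% of all probe sets were called; with the pair as a term 0 of 41 were called and 5 had an unadjusted p under 0.05, beside 0.0149% called (0.00746% each way). With the pair as a term 10 were called higher and 2 lower at 12 h against 6 h, beside 9.06% (4.21% higher and 4.85% lower), and 10 higher and 3 lower at 18 h against 6 h, beside 15.1% (7.02% higher and 8.11% lower). All 5 tested fibrillar collagens and 2 of the 3 collagen VI genes had their lowest mean over all arrays at 6 h. In replicates 1 and 2 this did not hold for Col1a1, with 12.74 at 6 h against 12.40 in sham, or for Col1a2, with 11.79 against 11.73. The mean fibroblast marker level at 6 h was 6.93, against 7.29 in sham, in replicates 3 and 4 and 7.84, against 7.89 in sham, in replicates 1 and 2, and its part was not tested. Col3a1 was higher at 12 h than at 6 h by 1.03 and at 18 h than at 6 h by 0.70 (limma's adjusted p = 0.00369 and 0.0188 with the pair, 0.493 and 0.615 over all arrays). Col6a1 was higher by 0.65 and 0.64 (limma's adjusted p = 0.00774 and 0.00518 with the pair, 0.393 and 0.332 over all arrays). Against sham, the 6 h changes of these genes were -0.33 for Col3a1 and -0.30 for Col6a1, and neither was called. The comparisons with 6 h and with sham share arrays and are not independent of each other.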

How the data were processed

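Total RNA of 16 tissue samples was hybridised to Affymetrix rat arrays, 1 per sample. The authors deposited 1 log2 value per probe set and array, and GCRMA is the method named, per the submitters' processing notes, without a version. GCRMA corrects background from probe sequence, quantile-normalizes and summarises. Quantile normalization brings the arrays' distributions together, and the values ran from 2.22 to 15.1. Of 31099 probe sets 57 controls were left out. Genes were named from the platform annotation of 2016; all 77 members were found by Entrez ID in a RefSeq table of GRCr8, and 0 symbols differed. Scanner files were not analysed here, and the number of arrays limits the precision.

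Probe sets at or above 5 on at least 4 arrays (13410) entered limma 3.58.1 (functions lmFit and eBayes, R 4.3.3), in 1 fit of the 4 group means over 16 arrays, with Benjamini-Hochberg adjustment within each comparison. Adjusted p-values rest on the spread between these arrays, which in the main fit includes the difference between the replicate pairs. Shared animals were not modelled, since the labels do not give them. Each array's median over the tested probe sets lay between 7.51 and 7.62. The pair of replicates, the 3 array sets and the interactions were fitted likewise. The members, lists, rules and tests were chosen with earlier results of these data known. Named genes were every member called against sham, the 10 of highest mean, the highest in each role without a call, a fixed set of common chains, and the 10 with the largest difference between pairs. Other lists (19 lists, 212 of 251 symbols matched) gave up to 3 called genes per comparison. Values of Itgb3bp, Itgb5, Col5a1, Col15a1, Col16a1, Col4a6, Lama2 and Lama4 are outside this rule and were chosen after they were seen.

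Motifs were searched on both strands in the 250 bases before each start. Alternatives were no minimum level or a minimum of 7, a robust prior with a trend, centring, quantile normalization again, array weights (statmod 1.5.0), the blocks, only the 2 groups compared, probe sets averaged, stricter calls, each array left out, and each pair alone.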

Additional observations from a re-analysis of the deposited data

Results flagged for a closer look

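In 116 groups of 4 arrays (29 genes in 4 groups), 3 arrays stood far from the other 3; chance alone puts about 1 in 20 groups there. Itga3 at 6 h read 8.58 in replicate 2, while the other 3 arrays lay between 8.27 and 8.28. Itga6 at 12 h read 8.75 in replicate 3, while the others lay between 7.96 and 8.01. Itgb6 at 6 h read 6.20 in replicate 3, while the others lay between 4.78 and 4.89, under the level told from background. No difference between the pairs in the response to ligation was called by limma for any named gene.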

How the results depend on the processing

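Over the 29 named genes, no result changed sign while called in any of the 31 other settings. At 12 h against sham, 3 members were called; there were 1 with no minimum level, 5 with a minimum of 7, 8 with array weights, 10 with the pair block, 9 with the replicate block, 1 with only the 2 groups compared, 1 at an adjusted p under 0.01 and 1 at a fold of at least 2, and 1 to 5 without 1 array (1 without sham replicate 2, EDL 6 h replicate 1 or EDL 12 h replicate 1 or 2, 5 without EDL 12 h replicate 3 or EDL 18 h replicate 4). At 18 h against sham, 3 were called; there were 5 with array weights, 7 with the pair block, 7 with the replicate block, 1 at an adjusted p under 0.01 1 in replicates 1 and 2 alone, and 2 to 3 without 1 array. At 12 h against 6 h, 2 were called; there were 0 with no minimum level, 6 with array weights, 12 with the pair block, 6 with the set block, 12 with the replicate block, 1 with only the 2 groups compared, 0 at an adjusted p under 0.01, 1 at a fold of at least 2, and 0 to 3 without 1 array (0 without EDL 12 h replicate 1, 1 without EDL 6 h replicate 1 or 3). At 18 h against 6 h, 2 were called; there were 1 with no minimum level, 13 with the pair block, 13 with the replicate block, 1 at an adjusted p under 0.01, 1 at a fold of at least 2, 1 in replicates 1 and 2 alone, and 1 to 4 without 1 array (1 without EDL 6 h replicate 1 or 3 or EDL 18 h replicate 2, 4 without EDL 12 h replicate 3). Of the 25 called between the replicate pairs, 11 had a fold of at least 2. The cause of these shifts was not tested, except that a minimum of 7 tests 30 members and the stricter rules admit fewer by construction. The replicate numbers were not taken as pairing. Deviations of same-numbered arrays correlated by 0.00651 to 0.556, with a median of 0.414. Those of arrays in the same replicate pair with another number correlated by -0.00558 to 0.63, with a median of 0.385. Of 16 arrays 11 correlated best with their own number, but the 2 ranges overlap, so the number was not told apart from the pair. The median change over all tested probe sets lay between -0.0156 and 0.0236 in the main fit of the 6 comparisons. It lay between -0.0154 and -0.00435 after centring and between -0.0106 and 0.00524 after a repeat normalization. Depth here is signal over background: 36 members could not be tested.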
